A study of Mus musculus with 8 samples.

Results

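The genes Fos, Fosb, Fosl2 and Jun encode subunits of activator protein 1 (AP-1), and the sites of phosphorylated STAT3 around them were taken from 6 chromatin immunoprecipitation sequencing (ChIP-seq) peak lists. A site was included when its peak overlapped a window around 1 of the genes by 1 bp or more. The windows, on the mouse build mm9, were chr12:86760000-86870000 for Fos, chr7:19840000-19950000 for Fosb, chr5:32390000-32510000 for Fosl2 and chr4:94660000-94770000 for Jun. They held 7 of the 5343 distinct sites with an exact position in the 6 lists: 3 in the Fos window, 3 in the Fosl2 window, 1 in the Jun window and 0 in the Fosb window. No mm9 gene annotation was used here, so a site belongs to a gene only through its window, and whether it lies in a promoter, exon or intron was not determined.

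The cells were mouse embryonic fibroblasts with the STAT3-/- genotype that re-expressed either STAT3α (iSTAT3α) or STAT3β (iSTAT3β), with 1 cell line per spliceform. All of them, those at 0 min included, received 1 nM 4-hydroxytamoxifen over 48 h or longer to switch on the construct and then spent 16 h without serum. Human recombinant oncostatin M (OSM), an interleukin-6 family cytokine, was given at 10 ng/mL for 0, 30 or 180 min. The antibody recognised STAT3 carrying the phosphorylated tyrosine that follows activation. Each spliceform and time had 1 peak list made from merged reads, so no value has a replicate error and conditions could not be tested against each other. Input DNA of both lines made up the other 2 of the 8 samples and was not used here. The lists give positions without height or read number, so depth is unknown and absence from a list does not show that a site was unbound.

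STAT3 is phosphorylated by JAK kinases after OSM binds its receptor, moves to the nucleus as a dimer and binds DNA. STAT3β lacks the C-terminal transactivation domain of STAT3α but keeps the DNA-binding domain and the phosphorylated tyrosine. AP-1 is a dimer of basic leucine zipper proteins: Jun can pair with itself or with a Fos protein, whereas Fos proteins need a Jun partner. Fos, Fosb and Jun are immediate-early genes, transcribed soon after growth factors or cytokines reach a resting cell, and the sis-inducible element upstream of Fos is a classical STAT-binding element.

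The promoter sequences of the 4 genes are shown because they are the regulatory DNA of genes that differed in listed sites. Each run is the 250 bases before the transcription start from RefSeq (GRCm38.p6), 5′ to 3′ on the gene's strand. These positions belong to another build than the peaks, so it was not determined whether a peak covered them. Capitals mark TGACG, the first part of the cAMP response element TGACGTCA, and TGACATCA, a variant of that element.
Fos, GRCm38.p6 chr12:85473640-85473889, plus strand: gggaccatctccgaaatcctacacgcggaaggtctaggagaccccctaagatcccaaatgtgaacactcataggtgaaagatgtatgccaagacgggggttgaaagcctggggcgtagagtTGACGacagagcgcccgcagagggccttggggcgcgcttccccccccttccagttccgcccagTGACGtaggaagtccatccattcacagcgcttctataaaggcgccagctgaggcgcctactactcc
Fosl2, GRCm38.p6 chr5:32136222-32136471, plus strand: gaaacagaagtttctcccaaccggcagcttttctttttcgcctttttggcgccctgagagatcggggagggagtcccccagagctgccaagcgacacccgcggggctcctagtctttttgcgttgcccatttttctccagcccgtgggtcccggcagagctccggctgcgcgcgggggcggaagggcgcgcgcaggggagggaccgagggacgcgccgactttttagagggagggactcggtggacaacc
Jun, GRCm38.p6 chr4:95052223-95052472, minus strand: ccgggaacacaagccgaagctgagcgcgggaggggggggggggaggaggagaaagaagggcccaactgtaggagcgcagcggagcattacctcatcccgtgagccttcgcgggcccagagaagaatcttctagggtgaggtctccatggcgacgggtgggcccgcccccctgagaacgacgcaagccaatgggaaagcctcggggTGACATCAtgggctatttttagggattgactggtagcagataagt
Fosb, GRCm38.p6 chr7:19310046-19310295, minus strand: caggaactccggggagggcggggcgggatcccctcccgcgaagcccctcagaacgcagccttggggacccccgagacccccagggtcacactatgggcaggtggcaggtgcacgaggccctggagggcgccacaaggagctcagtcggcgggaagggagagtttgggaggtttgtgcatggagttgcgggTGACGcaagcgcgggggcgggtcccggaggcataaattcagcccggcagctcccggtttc

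None of the 4 promoters held the STAT motif TTCNNNGAA, which 7.02% of 32851 RefSeq promoter stretches of the same length held, or its stricter form TTCCNGGAA, held by 0.913%. They also lacked the full cAMP response element TGACGTCA (1.55% of all), the AP-1 motif TGANTCA (6.75%) and the CArG box bound by serum response factor (1.47%). TGACG occurred in 2 of the 4, Fos and Fosb, against 17.8% of all promoters. Fos held it at 2 places, 129 and 66 bases before the start. TGACATCA occurred in the Jun promoter alone among the 4, 45 to 38 bases before the start, and in 2.93% of all. All motifs were searched on both strands. TGACGTCA contains TGACG, and every TTCCNGGAA is also a TTCNNNGAA. TGACATCA has a longer gap between TGA and TCA than TGANTCA, so the AP-1 search could not find it. Whether AP-1 binds it was not determined. TGACG and TGACATCA were added after the sequences had been seen. No match says only that these letters are not in the 250 bases searched. DNA further upstream was not searched, so elements lying there, at Fos or the other genes, would have been missed. In the Fosl2 promoter no letters are in capitals.

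Before OSM none of the 4 windows had a listed site in either cell line. All 4 windows lie below 100 Mb on their chromosomes, and only 0 min positions of 100 Mb and more had been rounded in the deposited lists, so rounding cannot hide a site here. The unstimulated lists were short, with 7 exact and 2 rounded positions for STAT3α and 8 exact and 4 rounded for STAT3β. Of all 30 min sites, 0.107% of the STAT3α list and 0.180% of the STAT3β list were also listed at 0 min, so 0 of 7 and 0 of 2 here are near that level.

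At 30 min of OSM the windows held 7 STAT3α sites and 2 STAT3β sites. Both STAT3β sites were also STAT3α sites, 1 at Fos and 1 at Fosl2. The other 5 were in the STAT3α list alone: 2 at Fos, 2 at Fosl2 and the single Jun site. At 180 min 1 site was left, the shared Fosl2 site, in the STAT3α list. No site was in the STAT3β list at 180 min.

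**Figure D1:**
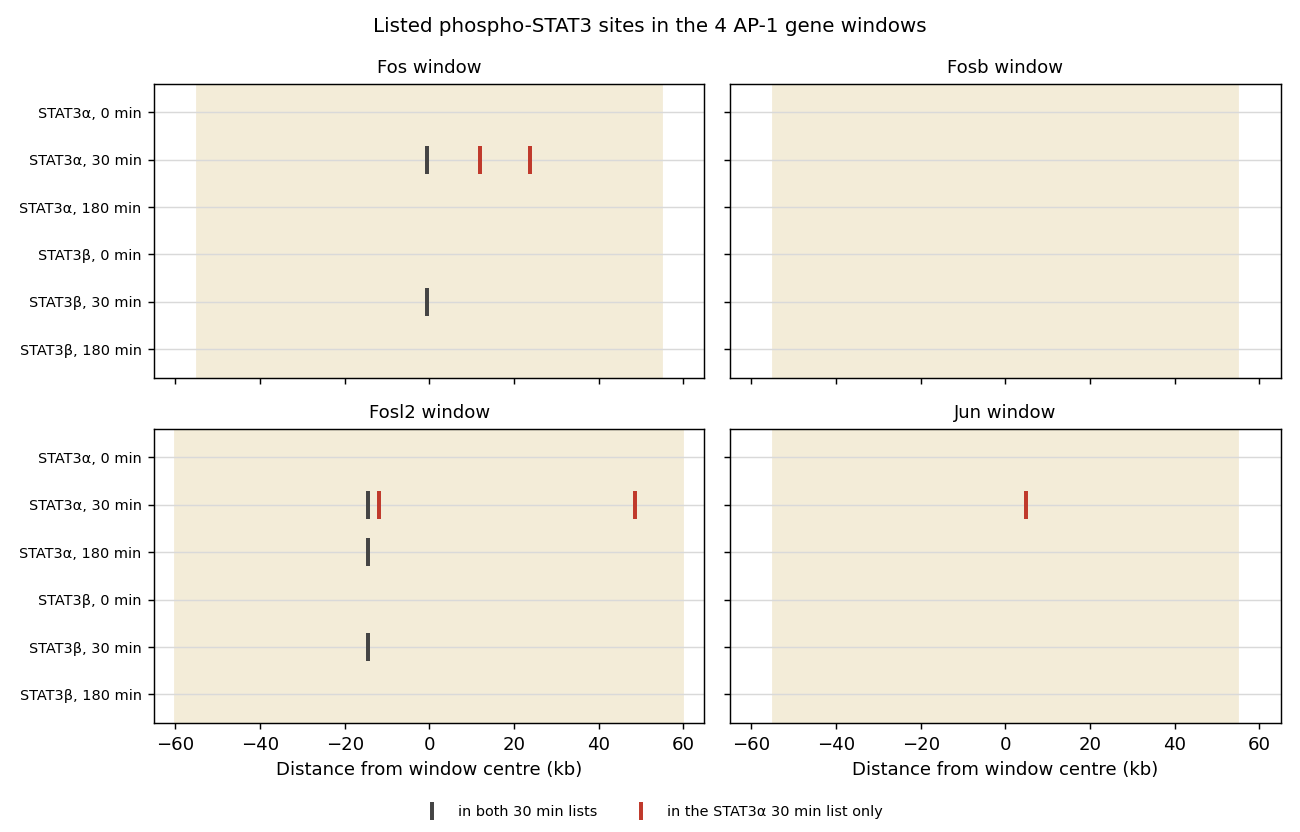
Listed sites in the Fos, Fosb, Fosl2 and Jun windows (shaded). The horizontal axis is the distance from the window centre in kb, each row is 1 peak list, and each tick is a site, dark grey where it is in both 30 min lists and red where it is in the STAT3α 30 min list alone. The STAT3α 30 min row holds 3 sites at Fos, 3 at Fosl2 and 1 at Jun, and the Fosb panel is empty.

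Fos encodes c-Fos, the best known partner of Jun. Its first site, chr12:86814260-86814659, lay 0.5 kb below the window centre and was listed for both spliceforms at 30 min. The second, chr12:86826846-86827245, and the third, chr12:86838577-86838976, were listed for STAT3α alone. The 3 sites were spaced by 12.6 and 11.7 kb between starts, 24.3 kb from first to last. The sites missing from the STAT3β list thus lay on 1 side of the shared site. None of the 3 was listed at 180 min in either line. The nearest STAT3α site at 180 min was 13628 kb from the shared Fos site, and the nearest STAT3β one 4860 kb. The 180 min lists held only 40 STAT3α and 120 STAT3β sites in the whole series, so such distances do not set this window apart.

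Fosl2 encodes Fra-2, a Fos-related protein that lacks the C-terminal transactivation domain of c-Fos. Its first site, chr5:32435435-32435834, was listed for both spliceforms at 30 min and again for STAT3α at 180 min. The second, chr5:32437975-32438374, began only 2.54 kb further along and was listed for STAT3α at 30 min alone. The third, chr5:32498291-32498690, lay 60.3 kb beyond the second, near the upper end of the window, and was also listed for STAT3α at 30 min alone. The sites 2.54 kb apart therefore differed both in their STAT3β listing and in their listing at 180 min.

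Jun encodes c-Jun, which pairs with each of the Fos proteins. Its window held 1 site, chr4:94719680-94720079, 4.9 kb above the window centre, in the STAT3α 30 min list alone. The nearest STAT3β site at 30 min was 266 kb away. A further STAT3α-only site, chr4:94772181-94772580, fell 2.18 kb outside the window and 52.5 kb from the Jun site. The window's edge thus sets whether Jun has 1 site or 2 in the STAT3α list.

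Fosb encodes FosB, known also for the stable truncated form ΔFosB. Its window had 0 sites in each of the 6 lists. The nearest listed sites of any list were chr7:19588059-19588458, 252 kb below the window, and chr7:20213841-20214240, 264 kb above it. Both were in the STAT3β 30 min list alone. The nearest STAT3α sites at 30 min were further off, 2344 kb below and 452 kb above. An empty window was the common case: 16.0% of 23084 tiles of 110 kb along the genome held a site in either 30 min list.

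The number of sites per window was set beside the same tiles, 1 every 110 kb over the span of listed positions. Of these tiles 11.8% held at least 1 STAT3α site at 30 min and 12.7% at least 1 STAT3β site, whereas 3 of the 4 gene windows held a STAT3α site and 2 of the 4 a STAT3β site. At least 3 STAT3α sites, as at Fos and Fosl2, were listed in 0.905% of tiles, or 5.67% of the 3684 tiles with any 30 min site. The Fosl2 window is 120 kb long, and 1.04% of tiles of that length held 3 or more STAT3α sites. As a density, the windows held 15.6 STAT3α and 4.44 STAT3β sites per Mb, against 1.47 and 1.53 per Mb over the 2539 Mb tiled. Tiles were not matched to the windows for gene content, and the windows were chosen with earlier results of these data known, so the comparison is a description.

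**Figure D2:**
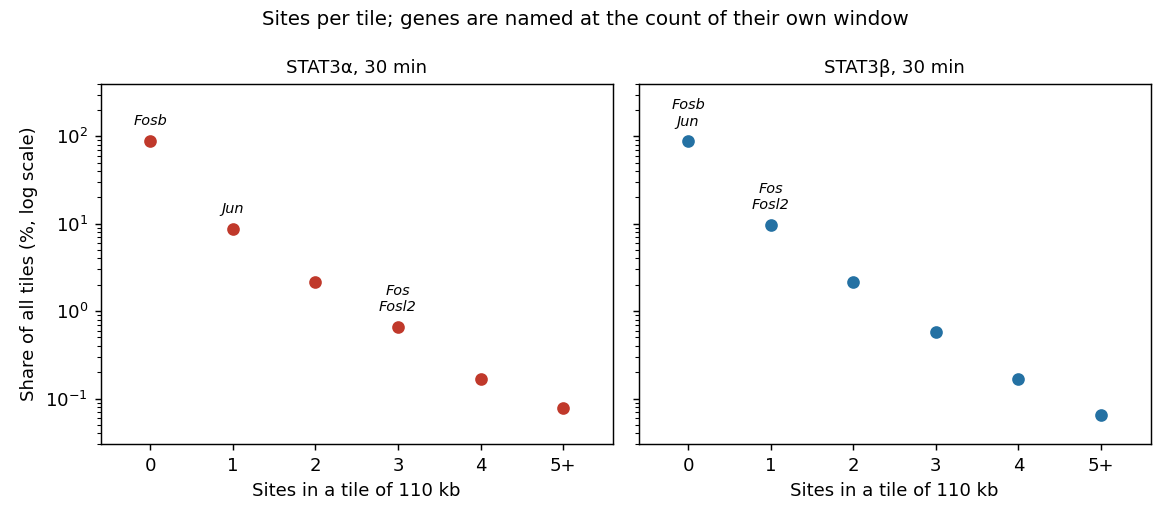
Share of 110 kb tiles (vertical log axis, %) by the number of sites in the tile (horizontal axis) for the STAT3α list (left) and the STAT3β list (right) at 30 min. Each point is the share of all 23084 tiles, and each gene is named at the count of its own window: Fos and Fosl2 at 3 STAT3α sites, a count reached or passed by 0.905% of tiles, and at 1 STAT3β site.

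The spliceforms were compared over the sites of the windows at 30 min. Of the 7 sites 2 (28.6%, 95% exact binomial interval 3.67 to 71.0%) were in both lists, against 42.7% of all 5338 sites listed at 30 min. STAT3α alone held 5 (71.4%, interval 29.0 to 96.3%), against 27.1% of all, and STAT3β alone held 0, with an upper limit of 41.0%, against 30.2% of all. As a share of each list, 2 of the 7 STAT3α sites were shared, against 61.2% of that whole list, and 2 of the 2 STAT3β sites, against 58.5%. The background share for STAT3α alone lay just below the interval of the windows, and those for shared and for STAT3β-only sites lay within theirs. Intervals cover counting over sites only, and neighbouring sites are not independent. Where a background share falls against an interval is therefore not a test of a difference.

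The windows of Fos and Fosl2 each held 2 more STAT3α than STAT3β sites. An excess of at least 2 STAT3α sites was seen in 0.580% of all 110 kb tiles and in 3.64% of those with a 30 min site. The limit of 2 is the excess of these same windows, and the Fosl2 window, at 120 kb, is longer than the tiles. An excess of at least 2 STAT3β sites was as frequent, 134 tiles against 134. A STAT3α site with no STAT3β site, as at Jun, was seen in 3.23% of all tiles, or 20.2% of tiles with a 30 min site. Over the whole chromosomes, STAT3α-only sites made up 34.4% of 163 sites on chromosome 12 (Fos), 22.9% of 358 on chromosome 5 (Fosl2) and 28.8% of 371 on chromosome 4 (Jun). The share on chromosome 7, which carries Fosb and its empty window, was 37.2% of 196 sites, the highest of the 4.

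The surroundings of the windows looked different. Within 500 kb of the 4 window centres, 15 STAT3α and 15 STAT3β sites were listed at 30 min, with 5 shared, 10 STAT3α-only and 10 STAT3β-only sites. Outside the windows but within that distance, 18 sites remained, of which 3 (16.7%) were shared, 5 (27.8%, interval 9.69 to 53.5%) were STAT3α-only and 10 (55.6%, interval 30.8 to 78.5%) were STAT3β-only. Density there was 2.25 STAT3α and 3.66 STAT3β sites per Mb. Pooled over the 4 genes, STAT3α sites outnumbered STAT3β sites in the windows, and STAT3β sites outnumbered STAT3α sites in the rest of the regions. This did not hold for each gene. Around Fos, STAT3α sites also outnumbered STAT3β sites outside the window, and the Fosb window had 0 sites to compare. The contrast between the windows and their surroundings was noticed after the positions had been seen and was not tested.

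**Figure D3:**
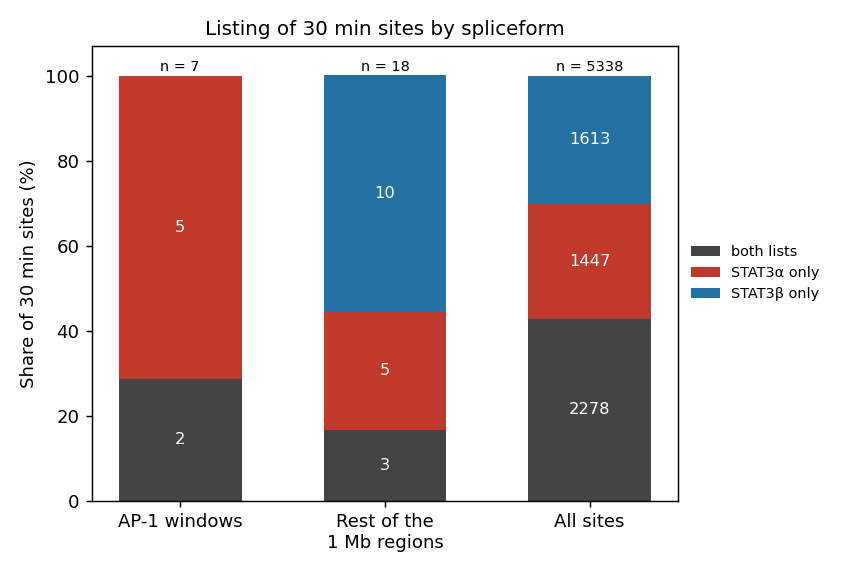
Share of 30 min sites (vertical axis, %) that were shared (dark grey), STAT3α-only (red) or STAT3β-only (blue), for the 4 windows, for the rest of the 1 Mb regions around them and for all sites. Numbers in the bars count sites: STAT3α alone holds 5 of 7 in the windows and 5 of 18 in the rest of the regions.

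The regions differed from gene to gene. Around Fos, STAT3α held 6 sites and STAT3β 2. The 3 further STAT3α sites there lay 97.3, 125 and 134 kb above the window centre, the first at chr12:86912129-86912528, and all were STAT3α-only. The only further STAT3β site was 396 kb away. In the RefSeq gene order of GRCm38.p6, the protein-coding genes that follow Fos are Jdp2 and Batf, which also encode basic leucine zipper proteins that pair with Jun proteins; which gene these sites belong to was not determined. Around Fosl2, 3 of 8 sites were in both lists, 3 in STAT3α alone and 2 in STAT3β alone. A shared site at chr5:32318445-32318844 lay 71.2 kb below the window, on the side where the gene order puts Babam2, and Plb1 follows Fosl2 on the other side. Around Jun, STAT3β held more, 5 sites against 3, with 4 STAT3β-only sites between 342 and 434 kb from the centre. The Fosb region held 3 sites, all STAT3β-only.

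**Figure D4:**
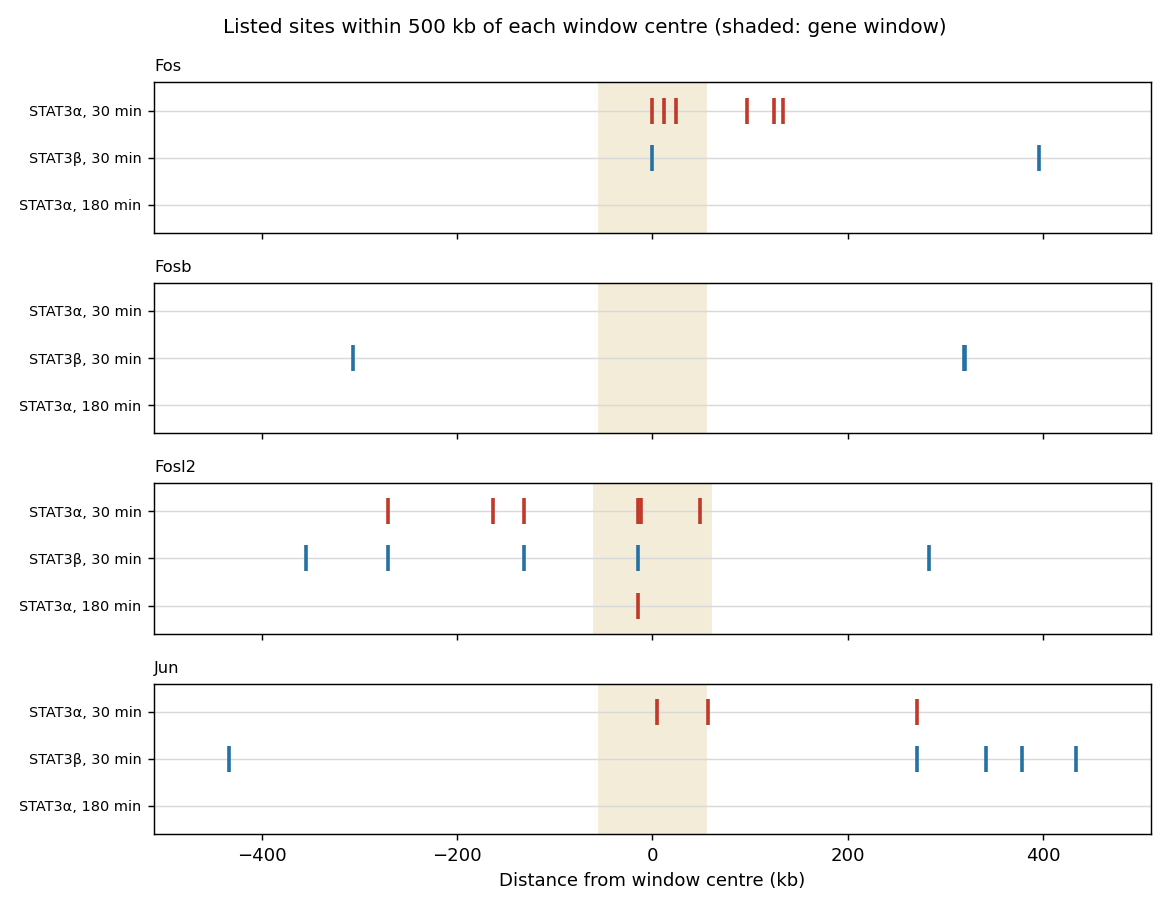
Sites within 500 kb of each window centre. The horizontal axis is the distance from the centre in kb, each row is a list, each tick is a site (red STAT3α, blue STAT3β) and the shading marks the gene window; the lists of both spliceforms at 0 min and of STAT3β at 180 min have no site in these regions and are left out. STAT3α ticks gather in and just above the Fos window, while the Fosb region has 3 STAT3β ticks, none in the window.

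Spacing was compared with that of the whole list. The median distance from a STAT3α 30 min site to the nearest other one, on either side, was 61.9 kb between centres. Of these sites 22.2% had another within 13 kb and 7.09% within 3 kb. In the windows, 5 of the 7 sites had a STAT3α neighbour within 13 kb, the 3 at Fos and the 2 at the lower end of the Fosl2 cluster, and the latter 2 were within 3 kb of each other. The limits of 3 and 13 kb lie just above the spacings of these same sites, 2.54 and 12.6 kb. Sites of a cluster also count each other as neighbours. The comparison is therefore a description and cannot show that these sites are closer together than others. Among STAT3α-only sites, 19.4% had a STAT3β site within 13 kb, and the median distance to one was 78.0 kb. The 5 STAT3α-only sites here lay 12.6 and 24.3 kb (Fos), 2.54 and 62.9 kb (Fosl2) and 266 kb (Jun) from the nearest STAT3β site.

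At 180 min 1 of the 7 STAT3α sites was listed again (14.3%, interval 0.361 to 57.9%), against 0.940% of all STAT3α 30 min sites. None of the 2 STAT3β sites was listed again, which allows up to 84.2%, against 3.03% of all STAT3β 30 min sites. The retained site was the shared Fosl2 site at chr5:32435435-32435834. Of the 2278 sites in both 30 min lists, 1.19% were listed at 180 min for both spliceforms, 3.73% (85 sites) for STAT3β alone, 0.351% (8 sites) for STAT3α alone and 94.7% for neither. The Fosl2 site was 1 of those 8, and the shared Fos site was among the large group listed for neither. On chromosome 5 the nearest other STAT3α site at 180 min was 90173 kb away, and the nearest STAT3β site at 180 min 40515 kb. In lists of 40 STAT3α and 120 STAT3β sites, such distances do not set the site apart. With 1 list per spliceform and time, whether the 180 min listing of the Fosl2 site differs between spliceforms could not be tested, and the spliceform cannot be told apart from the cell line or the unknown depth of its library.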

How the data were processed

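Per the labels' protocols, duplicates were prepared, and chromatin fixed in 1% formaldehyde (10 min) was sheared to 200 to 500 bp. The submitters' processing notes give mm9, MACS2 2.1.1.20160309, HOMER 4.9, STAR 2.5.0a, Trim Galore 0.4.2 and bedtools, with no role for any of them. The deposited lists hold start and end positions only, with no header. Wherever peaks of 2 lists overlapped, their coordinates were the same, so a site is an entry of a common set, and all 7 sites of the windows were 400 bp wide. The origin of that set, the peak threshold and the role of the input remain not given in the sources used here.

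Groups came from the sample titles. Positions were converted to count from 1. The 6 rounded 0 min positions were left out of overlaps. Sites were counted per window and list, and in 110 kb tiles from the first to the last listed position of each chromosome. Shares carry 95% exact (Clopper-Pearson) intervals. No test was run, since each group had 1 list. Every site of the windows is named, with the nearest sites outside. The genes, windows and motifs were chosen with earlier results of these data known. Of the 7 AP-1 genes Fos, Fosb, Fosl1, Fosl2, Jun, Junb and Jund, 6 matched the RefSeq promoter table, and only the 4 of the windows are described. Gene order was taken from the GRCm38.p6 table as names only. Functions were tested on simulated sites. Software was Python 3.11.15 with scipy 1.17.1, numpy 2.4.6 and, for plots, matplotlib 3.10.9.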

Additional observations from a re-analysis of the deposited data

How the results depend on the processing

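Of 62 alternative values for 19 results, 58 stayed within 1.5 times the count, or within the counting interval of the share. Those that moved were the Jun count with windows of double the width and the shares of 120 kb tiles given below. Jun then had 2 STAT3α sites at 30 min in place of 1. Within the limit, Fos had 4 STAT3α sites in place of 3 with windows of double the width. Fosl2 had 2 in place of 3 with windows narrowed to 50% of their width, also within the limit. Counting only peaks wholly inside a window gave the same counts. Merging peaks under 1 kb apart could not change them, since the closest sites of the windows began 2.54 kb apart. The shares of shared and of late sites could not change either with an overlap of 50% of both peaks or for peaks within 1 kb. Overlapping peaks had the same coordinates and no others were that close. The 58 values include these fixed outcomes, which do not measure stability. With tiles of 120 kb, 12.7% held at least 1 STAT3α site, 13.6% at least 1 STAT3β site and 1.04% at least 3 STAT3α sites, which follows from the longer tile. No paired analysis was possible because each group had 1 list, and no replicate could be left out for the same reason. The depth of the lists is unknown, and with 7 sites the shares are imprecise.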
